A study of Mus musculus with 33 samples.

Results

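The muscarinic acetylcholine receptors are a family of 5 genes in the mouse, Chrm1, Chrm2, Chrm3, Chrm4 and Chrm5. They were taken by symbol from the count tables of frontal cortex RNA-Seq, and all 5 of the 5 were found among the 23366 genes of each table and passed the filter on low counts in both sexes. The libraries came from C57BL/6 offspring about 1 month old, 1 pup per litter, and each sex had its own sequencing run, so females and males were analyzed apart. The air groups (6 female and 6 male libraries) inhaled filtered air through whole-body exposure, before birth by way of the dam and after birth together with her. The nicotine groups (5 female and 6 male libraries) inhaled e-cigarette aerosol from a liquid labelled 13 to 16 mg/ml nicotine on the same schedule. The no nicotine groups (5 female and 5 male libraries) inhaled e-cigarette aerosol from a liquid without nicotine. All groups, air included, were handled alike and carried no engineered allele. Per the study's methods, libraries that stood apart in a principal component analysis had been left out by the authors.

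Muscarinic receptors sit in the cell membrane, bind acetylcholine and pass the signal to G proteins, unlike the nicotinic receptors, which are ion channels. Chrm1, Chrm3 and Chrm5 encode receptors that couple to Gq and G11, which activate phospholipase C, release calcium through inositol trisphosphate receptors, activate protein kinase C and close the M-type potassium channels. Chrm2 and Chrm4 encode receptors that couple to Gi and Go, which inhibit adenylyl cyclase and open the inwardly rectifying GIRK potassium channels. In the forebrain the Chrm1 product is known from cortical pyramidal neurons, the Chrm4 product from striatal projection neurons, the Chrm2 product as an autoreceptor of cholinergic neurons, and the Chrm5 product from midbrain dopamine neurons.

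The receptors of this family resemble each other, so the first question was whether a read could be told apart between members. Shown here is the stretch of 50 bases where the coding sequences of Chrm1 and Chrm4, the closest pair, come closest. For each other gene, the coding stretch that best matches that of Chrm1 is given. All are in the direction of the gene, and the length is that of a read. Capitals mark the 35 bases that all 5 genes share.
Chrm1: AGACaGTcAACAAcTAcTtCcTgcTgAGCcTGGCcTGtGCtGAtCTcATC
Chrm2: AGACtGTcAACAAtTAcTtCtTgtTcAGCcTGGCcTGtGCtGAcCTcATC
Chrm3: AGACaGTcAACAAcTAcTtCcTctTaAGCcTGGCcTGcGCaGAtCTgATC
Chrm4: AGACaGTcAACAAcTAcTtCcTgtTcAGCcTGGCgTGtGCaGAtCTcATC
Chrm5: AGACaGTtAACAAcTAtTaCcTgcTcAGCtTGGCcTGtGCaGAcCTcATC

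In the mm9 build this stretch lies in coding exons at chr19:8752592-8752641 (plus strand) for Chrm1, chr6:36473373-36473422 (plus strand) for Chrm2, chr13:9877900-9877949 (minus strand) for Chrm3, chr2:91767593-91767642 (plus strand) for Chrm4 and chr2:112320693-112320742 (minus strand) for Chrm5. Chrm1 and Chrm4 differed there at 4 bases. Over all windows of 50 exon bases, the closest windows of each of the 10 pairs of genes differed at 4 to 8 bases, while the authors' mapping allowed 2 mismatches. No window of 50 bases of any of the 5 genes occurred in the protein-coding transcripts of another gene. Shared sequence between members therefore did not reach the length and identity at which an error-free read of 1 member would map to another.

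Overlap with genes on the opposite strand was a separate matter. In the GENCODE annotation of mm9, Chrm1 shares 329 exon bases with a copy of the small nuclear RNA 7SK, Chrm2 shares 142 with the noncoding RNA 9330158H04Rik, and Chrm4 shares 25 with Mdk, each on the opposite strand. Whether the authors' counting used strand is not stated, so reads in these bases cannot be assigned with certainty. For Chrm3 and Chrm5 no overlapping gene was found.

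Total counts ran from 19150562 to 27513174 in the 16 female libraries and from 17845672 to 24787955 in the 17 male libraries. A library held 3237 to 7006 reads of Chrm1, 1152 to 2689 of Chrm4, 488 to 1429 of Chrm3 and 115 to 456 of Chrm2. Chrm5 had 8 to 75 reads per library, so counting error alone was wide there. The 10 reads of Chrm5 in female air replicate 6, for example, allow 4.80 to 18.4 (exact 95% Poisson interval, which covers counting error only). The library labelled male nicotine replicate 21 went against its sex label, with Xist at 215 CPM (reads scaled to library size) and 1 read of Y-linked genes, while the other 16 male libraries had at most 0.253 and at least 2140. The receptor, list and marker values of the male nicotine group are therefore also given without it.

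In normalised CPM (library sizes scaled with TMM) per kb of exon, Chrm1 was the receptor transcript with the highest level in the air groups. Its mean level was 41.1 ± 1.57 CPM per kb in females and 39.3 ± 2.29 in males (SD, n = 6 each). Chrm3 had 25.4 ± 4.65 and 21.97 ± 1.81, and Chrm4 had 23.2 ± 1.58 and 24.2 ± 3.25. The levels of Chrm2, 1.24 ± 0.201 and 1.24 ± 0.230, and of Chrm5, 0.492 ± 0.188 and 0.532 ± 0.281, were much lower.

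The order was tested between neighbours, within each air group, by an exact two-sided sign-flip permutation test over the 6 libraries, whose smallest p is 0.0313. Chrm1 stood above the next gene in 6 of 6 libraries of each sex (1.62-fold in females and 1.63-fold in males, exact permutation p = 0.0313, adjusted over 8 tests 0.0417). Chrm3 and Chrm4 did not differ beyond the spread between libraries, with Chrm3 above Chrm4 in 4 of 6 female libraries (exact permutation p = 0.375) and Chrm4 above Chrm3 in 3 of 6 male libraries (exact permutation p = 0.250). Chrm2 stood above Chrm5 in 6 of 6 libraries of each sex, by 2.51-fold in females and 2.32-fold in males (adjusted exact permutation p = 0.0417).

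The length used matters for the middle of this order. The annotation holds 6271 exon bases for Chrm1, 6053 for Chrm2 and 2768 for Chrm4, but only 1949 for Chrm3 and 1746 for Chrm5, close to their coding lengths of 1767 and 1596. Per kb of coding sequence, Chrm4 stood above Chrm3 in 6 of 6 libraries of each sex, by 1.59-fold in females and 1.92-fold in males (exact permutation p = 0.0313). The top and the bottom of the order were the same on both lengths.

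**Figure D1:**
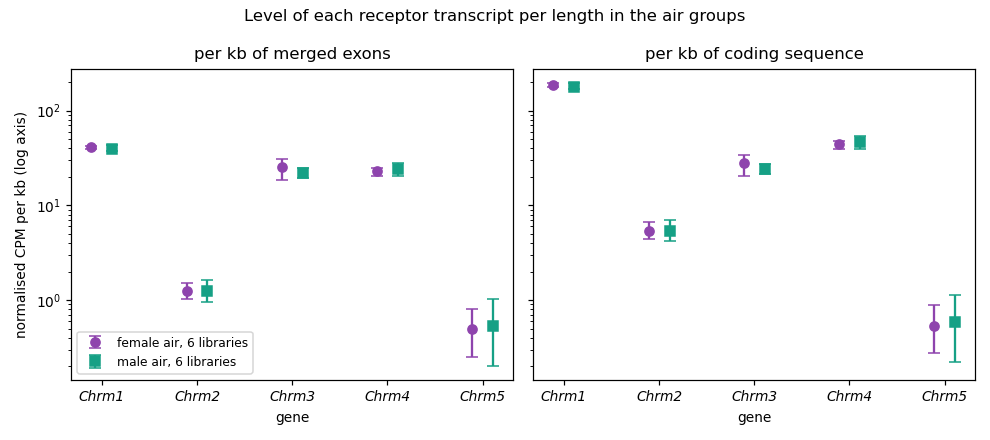
Mean level of the 5 receptor transcripts in the air groups, in normalised CPM per kb on a log axis, per merged exon length (left) and per coding length (right). Points are means over 6 libraries (circles female, squares male) and bars run from the lowest to the highest library. Chrm1 is highest and Chrm5 lowest on both, while Chrm3 and Chrm4 change places between the panels in females.

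Against this baseline, the transcripts of the Gq-coupled receptors Chrm1 and Chrm3 were lower after aerosol without nicotine in both sexes, and Chrm1 was also lower in the female nicotine group. Chrm5, the rarest member, was higher after aerosol without nicotine in females. The Gi-coupled receptors Chrm2 and Chrm4 had means above air in all 4 comparisons, and neither passed the threshold in any. The comparisons with air within a sex share the same air libraries, so they are not independent of each other. In bulk tissue, a lower level through fewer cells of a type and through less RNA per cell cannot be told apart. All fold changes below come from edgeR's quasi-likelihood test fitted across all genes of a sex, with Benjamini-Hochberg adjustment and a threshold of 0.01.

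In the female no nicotine group, 3 of the 5 receptors passed, where 12.1% of the 15158 genes tested did. In the male no nicotine group 2 of the 5 passed, against 13.6% of 15293 genes. In the female nicotine group 1 of the 5 passed, against 4.29% of genes. In the male nicotine group none passed, and 0% of genes did, since edgeR called none of the 15293 genes. At an unadjusted p under 0.05 it held 14.4% of genes (2203) and 1 of the 5 receptors, Chrm3, while DESeq2 called 159 genes and none of the receptors. Without replicate 21 edgeR again called none, 13.1% of genes and again Chrm3 alone of the receptors had an unadjusted p under 0.05, and DESeq2 called 108 genes and no receptor.

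**Figure D2:**
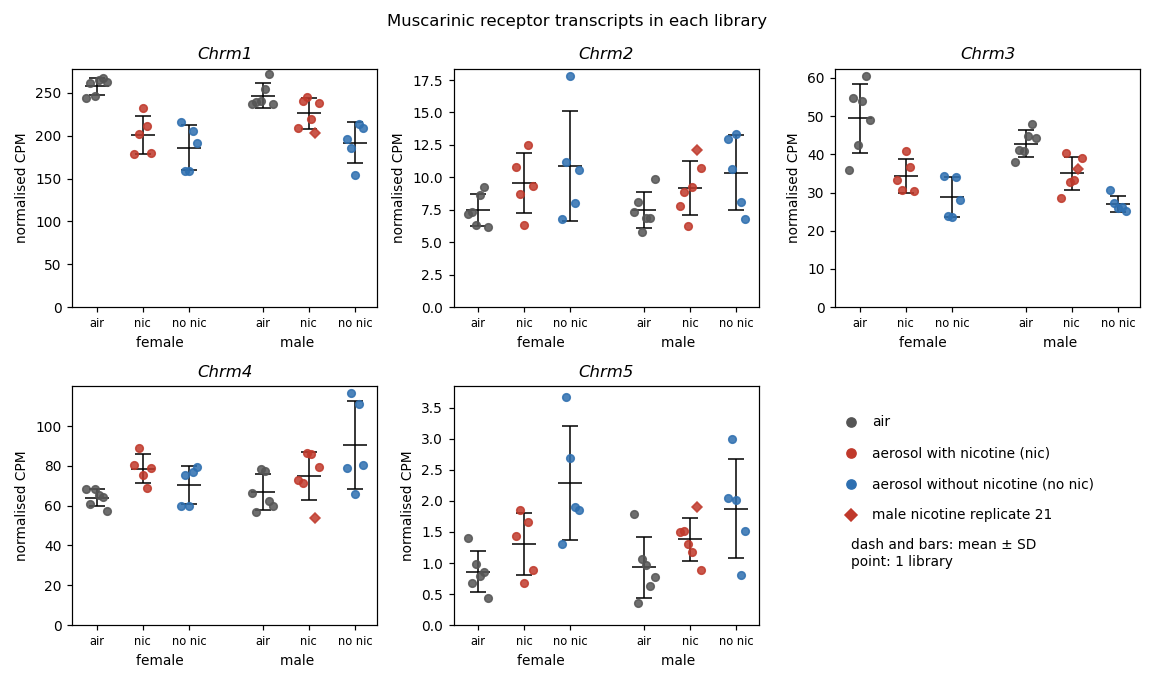
Level of each receptor transcript in each of the 33 libraries, in normalised CPM (1 panel per gene, y axes from 0, females left and males right). Points are libraries, dashes and bars are mean ± SD, and the diamond is male nicotine replicate 21. Chrm1 and Chrm3 of both no nicotine groups lie below every air library of their sex, while the Chrm2 groups overlap throughout.

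Chrm1 encodes the main muscarinic receptor of the cortex. In females its level ran from 244 to 268 CPM with a median of 262 in the air group. The 5 nicotine libraries had 179, 202, 232, 211 and 180 CPM, and the 5 no nicotine libraries had 215, 159, 159, 205 and 192. All 10 exposed libraries thus lay below the lowest air library. The log2 fold change was -0.47 (SE 0.083, adjusted p = 0.00121) for no nicotine against air, that is, 0.721 of the air level with a 95% confidence interval of 0.639 to 0.814. It was -0.36 (SE 0.083, adjusted p = 0.00983) for nicotine against air, a ratio of 0.779 (0.691 to 0.879). This second call lay just inside the threshold, and it held in 6 of 24 alternative fits, with adjusted p from 9.75e-04 to 0.0444.

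In males Chrm1 ran from 236 to 272 CPM with a median of 240 in the air group. The 5 no nicotine libraries had 196, 186, 154, 214 and 209 CPM, all below the lowest air library. This gave a log2 fold change of -0.36 (SE 0.072, adjusted p = 0.00135), a ratio of 0.777 (0.700 to 0.864). The male nicotine libraries ran from 203 to 245 CPM with a median of 229 and overlapped the air group, 3 of the 6 lying below it. Their log2 fold change of -0.13 (SE 0.069, adjusted p = 0.426) did not pass, and it was -0.10 (adjusted p = 0.602) without replicate 21.

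Chrm3 encodes another Gq-coupled receptor, best known outside the brain for smooth muscle contraction and gland secretion. In females its level in the air group ran from 35.8 to 60.6 CPM with a median of 51.5, a wide spread for this gene. The no nicotine libraries had 34.3, 23.9, 23.6, 34.0 and 28.1 CPM, all below the lowest air library. The log2 fold change was -0.78 (SE 0.13, adjusted p = 0.00107), a ratio of 0.583 (0.480 to 0.708). The nicotine libraries had 33.2, 30.6, 40.8, 36.6 and 30.4 CPM, of which 3 lay below the air range. Their log2 fold change of -0.53 (SE 0.13, adjusted p = 0.0156) missed the threshold. DESeq2 called it at an adjusted p of 0.00217, and edgeR called it without female air replicate 1, the lowest air library (0.00509), or without female nicotine replicate 3, the highest of its group (0.00916).

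In males Chrm3 ran from 37.9 to 47.9 CPM with a median of 42.7 in the air group. The no nicotine libraries had 30.6, 27.2, 26.0, 26.3 and 25.3 CPM, a narrow range well below air. Their log2 fold change was -0.66 (SE 0.080, adjusted p = 2.73e-05), a ratio of 0.633 (0.563 to 0.711), which gave Chrm3 the smallest p of the family in any comparison. The nicotine libraries lay between, from 28.7 to 40.4 CPM with a median of 34.7, and 4 of the 6 were below the air range. Their log2 fold change of -0.29 (SE 0.075, unadjusted p = 0.00117, adjusted p = 0.0885) did not pass, and it was -0.30 (adjusted p = 0.137) without replicate 21.

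Chrm5 is expressed at a trace level, at most 3.68 CPM in any library. In females the air group ran from 0.436 to 1.41 CPM with a median of 0.826. The no nicotine libraries had 1.30, 3.68, 2.69, 1.90 and 1.86 CPM, and 4 of the 5 lay above every air library. For this group the log2 fold change was 1.40 (SE 0.30, adjusted p = 0.00382), a ratio of 2.64 (1.69 to 4.12). The highest library, no nicotine replicate 2, rested on 75 reads (exact 95% Poisson interval 59.0 to 94.0). Among the fits that left out 1 library, the call was lost without no nicotine replicate 2 (log2 fold change 1.18, adjusted p = 0.0143), without no nicotine replicate 3 (1.33, 0.0132) and without air replicate 6, the lowest air library (1.26, 0.0105).

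Elsewhere Chrm5 had means above air without passing. The female nicotine libraries had 1.44, 1.85, 0.674, 1.67 and 0.890 CPM, and their log2 fold change was 0.59 (SE 0.33, adjusted p = 0.260). In males the air group ran from 0.356 to 1.79 CPM with a median of 0.866, and the no nicotine libraries had 2.05, 2.996, 2.01, 0.810 and 1.52. The fold change, 1.01 on the log2 scale (SE 0.33, adjusted p = 0.0303), missed the threshold. It passed without air replicate 30, the highest air library (1.33, 0.00540), or without no nicotine replicate 5, the lowest of its group (1.19, 0.00887). The male nicotine libraries ran from 0.885 to 1.91 CPM with a median of 1.40 (log2 fold change 0.55, SE 0.33, adjusted p = 0.476, and 0.43 without replicate 21, adjusted p = 0.651).

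Chrm4 encodes the Gi-coupled receptor of the striatal direct pathway. In females its level in the air group ran from 57.1 to 68.4 CPM with a median of 64.9. The nicotine libraries had 80.4, 88.9, 75.2, 69.1 and 79.0 CPM, all above the highest air library. The log2 fold change of 0.29 (SE 0.082, adjusted p = 0.0265) nevertheless missed the threshold across all genes. For the gene alone, the exact two-sided permutation test gave the smallest p it can reach with 5 against 6 libraries, 0.00433, or 0.0216 adjusted over the 30 tests of 5 genes. Every called change of Chrm1 and Chrm3 had this same adjusted value, and none of the 30 was under 0.01. For the called change of Chrm5 the adjusted permutation p was 0.0325. DESeq2 called Chrm4 in the female nicotine group at an adjusted p of 0.00992. The female no nicotine libraries had 60.01, 75.5, 59.6, 77.0 and 79.6 CPM, 3 above the air range and 2 within it (log2 fold change 0.13, SE 0.082, adjusted p = 0.255).

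In males the spread of Chrm4 was larger. The air group ran from 57.0 to 78.2 CPM with a median of 64.3, and the no nicotine libraries had 78.8, 117, 65.8, 111 and 80.6. Against air this gave a log2 fold change of 0.44 (SE 0.14, adjusted p = 0.0302), which passed only without no nicotine replicate 4, the lowest of its group (0.53, 0.00975). The male nicotine libraries ran from 53.6 to 86.2 CPM with a median of 76.1, the lowest being replicate 21. Their log2 fold change was 0.16 (SE 0.14, adjusted p = 0.637), and 0.24 (adjusted p = 0.435) without replicate 21.

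Chrm2 encodes the Gi-coupled autoreceptor. In females the air group ran from 6.198 to 9.24 CPM with a median of 7.25, the nicotine libraries had 10.8, 8.70, 6.34, 12.5 and 9.30, and the no nicotine libraries had 6.80, 11.2, 17.8, 8.02 and 10.53. The no nicotine library at 17.8 CPM was the highest of all 33, and both exposed groups overlapped air. The log2 fold changes against air were 0.35 (SE 0.21, adjusted p = 0.309) for nicotine and 0.54 (SE 0.21, adjusted p = 0.0712) for no nicotine. In males the air group ran from 5.83 to 9.88 CPM with a median of 7.10, and the no nicotine libraries had 12.9, 10.6, 13.3, 8.10 and 6.82 (log2 fold change 0.47, SE 0.18, adjusted p = 0.0643). The male nicotine libraries ran from 6.23 to 12.1 CPM with a median of 9.04 and gave a log2 fold change of 0.30 (SE 0.18, adjusted p = 0.472), or 0.20 (adjusted p = 0.685) without replicate 21.

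**Figure D3:**
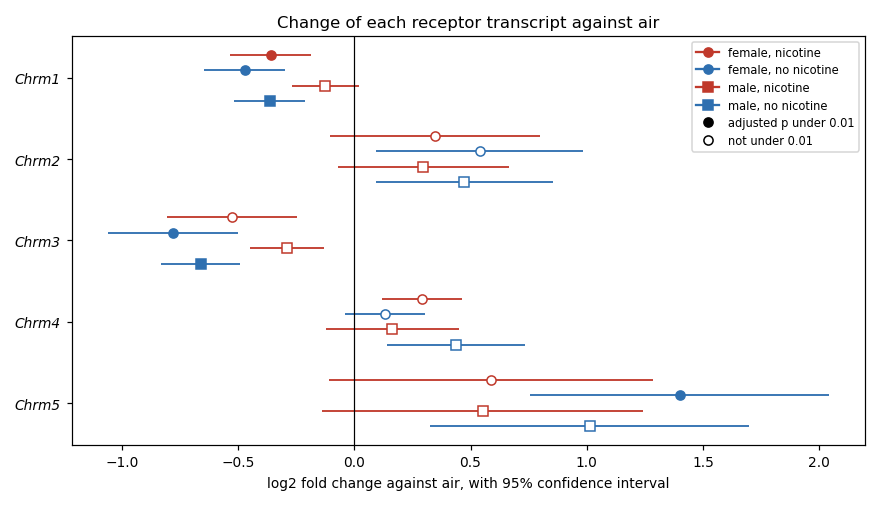
Log2 fold change of each receptor transcript against air, with 95% confidence intervals, for 2 sexes and 2 aerosols (circles female, squares male, red nicotine, blue no nicotine, filled where the adjusted p was under 0.01). Chrm1 and Chrm3 lie left of 0 in all 4 comparisons and Chrm2, Chrm4 and Chrm5 right of 0, and 6 of the 20 points are filled.

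Since the members moved in opposite directions, their proportions within a library were also described, a measure chosen after the values were seen and given without a test. The ratio of Chrm4 to Chrm1 reads does not depend on how libraries are scaled. In females it ran from 0.217 to 0.279 in the air group (median 0.244), from 0.324 to 0.450 with nicotine (median 0.439) and from 0.279 to 0.475 without (median 0.376). In males it ran from 0.229 to 0.326 in the air group (median 0.267), from 0.263 to 0.392 with nicotine (median 0.340) and from 0.386 to 0.628 without (median 0.426). Without replicate 21, the lowest of its group, the male nicotine ratio ran from 0.296 to 0.392 (median 0.348). The ratio of Chrm3 to Chrm1 moved less, from a median of 0.195 in female air to 0.174 with nicotine and 0.151 without, and in males from 0.173 to 0.157 (0.151 without replicate 21) and 0.146. Over the family, the summed level of Chrm2 and Chrm4 per kb of exon made up 24.4 to 30.8% of all 5 genes in female air, 32.6 to 40.6% with nicotine and 30.2 to 42.3% without. In males these shares were 25.8 to 32.8%, 29.1 to 38.2% (31.2 to 38.2% without replicate 21) and 38.9 to 49.2%. The size of the shares depends on the annotated exon lengths, which are close to the coding length only for Chrm3 and Chrm5. They were not computed per coding length.

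The nicotine and no nicotine groups were then compared with each other. The study's methods give separate chambers, and a lower mean particulate level for the aerosol with nicotine than for the other. Nicotine, particulate level and chamber therefore cannot be told apart in this comparison. In females no receptor passed, and edgeR and DESeq2 each called 0 of 15158 genes (0%), while 8.36% had an unadjusted p under 0.05. Among the receptors only Chrm5 did, with a log2 fold change of -0.81 for nicotine against no nicotine (95% confidence interval -1.46 to -0.16, adjusted p = 0.574). The intervals of the others were -0.07 to 0.29 for Chrm1, -0.65 to 0.27 for Chrm2, -0.04 to 0.55 for Chrm3 and -0.02 to 0.34 for Chrm4. In males no receptor passed by edgeR, which called 0.248% of genes (38, and 5 without replicate 21). Chrm3 was 1.29-fold higher with nicotine than without (log2 fold change 0.37, SE 0.081, adjusted p = 0.0201), with 5 of 6 nicotine libraries above every no nicotine library. DESeq2 called it (adjusted p = 0.00123), and so did edgeR without male nicotine replicate 15, the lowest of its group (0.00760). Without replicate 21 the value was 0.36 (adjusted p = 0.0416). Chrm1 was higher by 0.24 (SE 0.072, adjusted p = 0.0724), and 0.27 (adjusted p = 0.0689) without replicate 21.

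Whether the change against air differed between the sexes was tested with all 6 groups fitted together, over the 15105 genes that passed the filter in both. No receptor passed for either aerosol, and 0% of genes did by edgeR, with 6.47% at an unadjusted p under 0.05 for nicotine and 4.91% for no nicotine. Among the receptors, DESeq2 called none, and its smallest adjusted p was 0.8003. For nicotine, Chrm1 had the smallest p of the family, with a female minus male difference of -0.23 on the log2 scale (95% confidence interval -0.45 to -0.0016, unadjusted p = 0.0484, adjusted p = 0.765). Without male nicotine replicate 21 it was -0.25 (interval -0.48 to -0.03, unadjusted p = 0.0299, adjusted p = 0.767), no gene was called for either aerosol, and 6.05% and 4.84% of genes had an unadjusted p under 0.05. For no nicotine the differences of Chrm1 (-0.10, interval -0.33 to 0.13) and Chrm3 (-0.11, interval -0.44 to 0.22) were small beside their changes in either sex, and that of Chrm4 was -0.30 (interval -0.65 to 0.06). The threshold passed by Chrm1 in female nicotine libraries and not in male ones therefore did not amount to a tested difference between the sexes. Since each sex was sequenced in its own run, sex and run cannot be told apart here.

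Of 7 genes that supply and remove acetylcholine, 5 were higher in the female nicotine, female no nicotine and male no nicotine groups and none was lower, with median log2 fold changes over the list of 1.00, 1.05 and 1.06, against 0.0041, 0.0092 and 0.016 over all genes tested. Of all genes, 1.98%, 5.03% and 6.15% were higher in these comparisons and 2.32%, 7.03% and 7.47% were lower. That balance depended on the scaling: 46.1%, 41.7% and 45.2% of the called genes were higher as given, against 64.3%, 66.1% and 64.8% with libraries scaled by their totals, and upper quartile scaling raised the first share to 60.6%. The supply list had 5 higher and none lower in each of the 3 under library totals too, while DESeq2 called 1 of its genes lower in the female no nicotine group. Chat, which makes acetylcholine, rose from 3.995 CPM in female air to 13.3 with nicotine (log2 fold change 1.73, SE 0.28, adjusted p = 0.00162) and to 17.8 without (2.15, SE 0.28, adjusted p = 8.02e-04). Slc18a3, the vesicular transporter, rose to 33.9 CPM from 7.91 in the female no nicotine group (2.09, SE 0.28, adjusted p = 8.02e-04) and to 28.2 from 9.62 in the male one (1.56, SE 0.18, adjusted p = 2.14e-05). Ache, which breaks acetylcholine down, rose to 123 CPM from 65.5 in males without nicotine (0.91, SE 0.11, adjusted p = 2.63e-05). Slc5a7, the choline transporter, and Prima1, the membrane anchor of acetylcholinesterase, were the other two called in all 3 comparisons. Bche and Colq were called in none. With each library left out in turn, 5 of the list stayed higher in both no nicotine groups, with 1 lower in females without air replicate 3 or nicotine replicate 6, while the female nicotine count dropped to 2 when nicotine replicate 2 was left out and to 3 for replicate 1 or 6. In the male nicotine group none of the 7 passed, while 5 had an unadjusted p under 0.05 and a value above air, with a list median of 0.54. DESeq2 called 4 of the 7 there. Without replicate 21 these counts were again 0, 5 and 4, and the list median was 0.60.

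Of the 16 genes downstream of the Gq-coupled receptors, 2 were lower in the female nicotine group, 6 in the female no nicotine group and 4 in the male no nicotine group, and none was higher. Gnaq, the alpha subunit itself, was lower in all 3, with log2 fold changes of -0.23 (adjusted p = 0.00228), -0.22 (0.00137) and -0.24 (1.74e-04). Kcnq3, a subunit of the M-type potassium channel that these receptors close, was lower by -0.45 (0.00715), -0.61 (8.41e-04) and -0.41 (0.00686). The list medians were -0.17, -0.23 and -0.20. With library totals 1 gene of the list was called higher in the male no nicotine group, beside 4 lower, as it was without male air replicate 39. With 1 library left out the lower counts ran from 1 to 3, 2 to 7 and 3 to 6, and that of the female no nicotine group was 2 without air replicate 5 or no nicotine replicate 2, 3 or 5 and 3 without air replicate 2, 4 or 6.

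Of the 22 genes downstream of the Gi-coupled receptors, 6, 9 and 8 were lower in the same 3 comparisons and 1, 0 and 2 were higher. The GIRK channel subunits Kcnj3, Kcnj6 and Kcnj9 were lower in all 3. Kcnj6 fell to 12.3 CPM from 24.3 in males without nicotine (log2 fold change -0.98, adjusted p = 2.14e-05), and Kcnj9 to 33.3 from 55.7 in females without nicotine (-0.74, adjusted p = 8.02e-04). Adcy9, an adenylyl cyclase, was lower in all 3 as well. Gng7, the G protein gamma subunit abundant in striatal neurons, was higher in the female nicotine (0.69, adjusted p = 0.00329) and male no nicotine groups (0.70, adjusted p = 0.00881). Kcnj5, also a GIRK subunit, went the other way in the male no nicotine group, where it was higher (1.09, adjusted p = 0.00298) at a level of 2.94 CPM. So the effectors of the Gi-coupled arm that passed were mostly lower, like those of the Gq arm, while the mean levels of the receptors Chrm2 and Chrm4 were above air. With library totals 2 were higher and 7 lower in the female no nicotine group, and 4 and 8 in the male one. With 1 library left out the lower counts ran from 3 to 7, 5 to 10 and 8 to 9 and the higher counts from 0 to 2, 0 to 2 and 1 to 3, the lowest lower counts being those without air replicate 6 or nicotine replicate 1, 2 or 6 in the female nicotine group and without no nicotine replicate 2 or 3 in the female no nicotine group.

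Of 15 regulators of receptors and G proteins, 1 was higher in the female nicotine group, 3 were lower in the female no nicotine group, and 1 was higher and 4 were lower in the male no nicotine group. Beside these stand 1.98%, 5.03% and 6.15% of all genes higher and 2.32%, 7.03% and 7.47% lower in the same comparisons. Rgs6 and Rgs7, which speed the shut-off of Gi and Go, were lower in both no nicotine groups (Rgs7 by -0.34 in females, adjusted p = 0.00226, and by -0.40 in males, adjusted p = 6.54e-05). Rgs9, a striatal member of the same family, was higher in the female nicotine (0.75, adjusted p = 0.00838) and male no nicotine groups (0.66, adjusted p = 0.00890). With library totals the regulators had 1 higher and 3 lower in the female no nicotine group and 2 of each in the male one. With 1 library left out the lower counts ran from 0 to 2, 2 to 5 and 2 to 5 and the higher counts from 0 to 2 in each. In the male nicotine group no gene of the Gq, Gi or regulator lists passed. At an unadjusted p under 0.05, which 14.4% of all genes reached, 3 of the 16 were lower, 1 of the 22 was higher and 12 lower, and 2 of the 15 were higher and 4 lower. DESeq2 called 1 gene of the Gq list, 2 of the Gi list and none of the regulators there, all lower. Without replicate 21 no gene of these lists passed by edgeR, 3, 11 and 6 had an unadjusted p under 0.05 beside 13.1% of all genes, and DESeq2 called 0, 1 and 0.

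**Figure D4:**
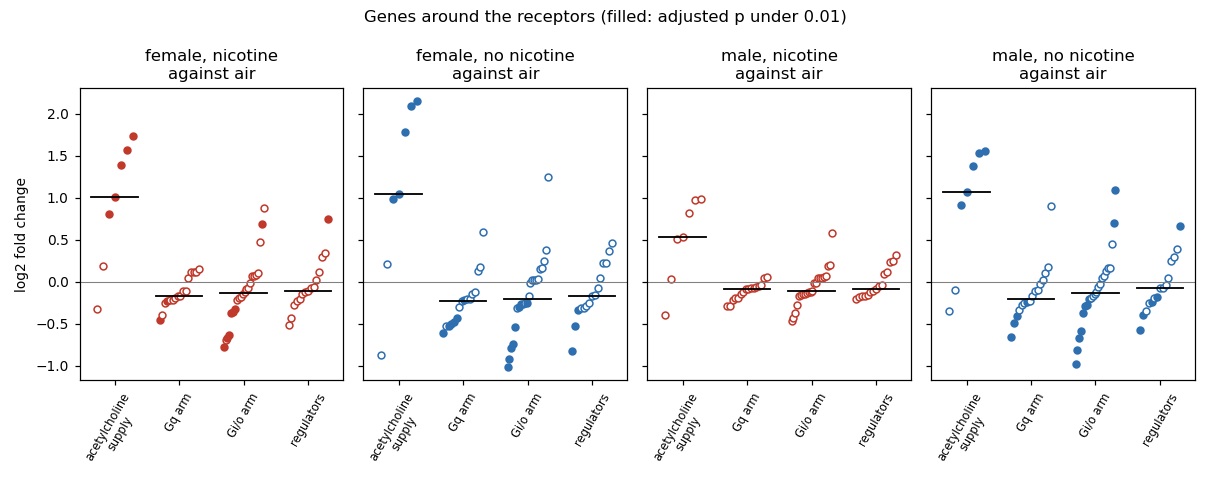
Log2 fold change against air of 7 acetylcholine supply genes, 16 genes of the Gq arm, 22 of the Gi/o arm and 15 regulators, 1 panel per sex and aerosol. Points are genes (filled where the adjusted p was under 0.01) and lines are list medians. The supply genes lie mostly above 0 in every panel, the downstream lists have medians below 0, and no point is filled in the male nicotine panel.

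Markers of the cell types and neighbouring regions that a dissected frontal block could hold were counted beside the receptors. None of the markers in these lists was at 0 in all libraries of a group. In the female nicotine, female no nicotine and male no nicotine groups, 1.98%, 5.03% and 6.15% of all genes were higher. The shares lower were 2.32%, 7.03% and 7.47%. Of 16 markers of cortical glutamatergic neurons, where Chrm1 is known to be expressed, 1 was lower in the female nicotine group, and 11 in each no nicotine group, while DESeq2 called 7 lower in the first of these. The female nicotine count was 6 without nicotine replicate 3 or no nicotine replicate 1, and the female no nicotine count was 2, 3 and 4 without no nicotine replicates 3, 5 and 2. Their summed level ran from 9610 to 12493 CPM in female air, 6345 to 9789 with nicotine and 4872 to 9111 without, and in males from 8689 to 10160, 7301 to 8382 (from 7515 without replicate 21) and 4827 to 8006. Of 11 markers of striatal projection neurons, where Chrm4 is known to be expressed, 3 were higher in the female nicotine group, 2 in the female no nicotine group and 3 in the male no nicotine group. With 1 library left out these counts ran from 0 to 5, 0 to 2 and 2 to 7, the last being 7 without no nicotine replicate 4 and 6 without replicate 7. Their summed level ran from 1111 to 2738 CPM in female air, 2456 to 3382 with nicotine and 2163 to 2710 without, and in males from 1523 to 2691, 1703 to 3435 (from 2082 without replicate 21) and 1823 to 4981.

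All 8 markers of basal forebrain cholinergic neurons were higher in the female nicotine, female no nicotine and male no nicotine groups. With 1 library left out the counts ran from 1 to 8 and 7 to 8 in females and stayed at 8 in males, the first being 1 without nicotine replicate 2, 2 without replicate 6, 4 without replicate 1 or air replicate 6 and 5 without air replicate 4 or 5. This list shares Chat, Slc18a3 and Slc5a7 with the supply genes above. It also shares a gene with the striatal list, which had the largest striatal change against air and is counted among the striatal markers called higher. The cholinergic sum ran from 23.4 to 90.2 CPM in female air, 94.2 to 211 with nicotine and 116 to 302 without, and in males from 41.3 to 90.4, 105 to 157 and 124 to 259. Of 8 myelin markers, 8 were higher in each female comparison and 7 in the male no nicotine group, with sums of 8286 to 9986 CPM in female air, 13602 to 17324 with nicotine and 11164 to 16710 without, and 9518 to 11648, 9759 to 15125 and 13861 to 23705 in males. Of the 6 hypothalamus markers tested, 1 was higher in the female and 2 in the male no nicotine group, with sums of at most 56.1 CPM in any library. Of the 4 midbrain dopamine neuron markers tested, 1 was higher in each of the 3 comparisons. Over all genes, 1.98%, 5.03% and 6.15% were higher in these comparisons and 2.32%, 7.03% and 7.47% were lower. Of 12 interneuron markers 2, 5 and 3 were higher and 1, 3 and 3 lower, of 8 thalamus markers 2, 2 and 1 were higher and 0, 0 and 1 lower, and of 6 choroid plexus markers 2 were higher in the male no nicotine group. Replicate 7 of that group stood apart there, with a summed choroid plexus level of 950 CPM against 28.9 to 51.0 in the other 4 libraries, and without it 1 of the 5 markers tested was higher. Female air replicates 3 and 6 and no nicotine replicate 3 stood apart too, at 328, 111 and 285 CPM. The other female libraries had at most 42.8 CPM. In the male nicotine group none of the markers in these lists passed by edgeR. DESeq2 called 7 of the 8 cholinergic markers and 1 each of the striatal, interneuron, thalamus, hypothalamus and choroid plexus markers, all higher. Of all 15293 genes it called 58 higher and 101 lower there. Without replicate 21 edgeR again called no marker. DESeq2 then called 5 cholinergic markers and 1 each of the striatal, thalamus, hypothalamus and choroid plexus markers higher and 1 cortical marker lower, beside 0.709% of all genes. In the main edgeR fits no astrocyte, microglia or endothelial marker passed in any comparison with air. At most 2 of a list had an unadjusted p under 0.05 in any of them, and DESeq2 called 1 astrocyte marker higher in each no nicotine group and 1 endothelial marker lower in the male one. Without male no nicotine replicate 7 edgeR also called 1 endothelial marker lower there. With library totals edgeR called 1 astrocyte marker higher in the male no nicotine group. In some fits with 1 library left out it called 1 astrocyte marker higher in each no nicotine group. The part of these cell types and regions in the receptor values was not tested.

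**Figure D5:**
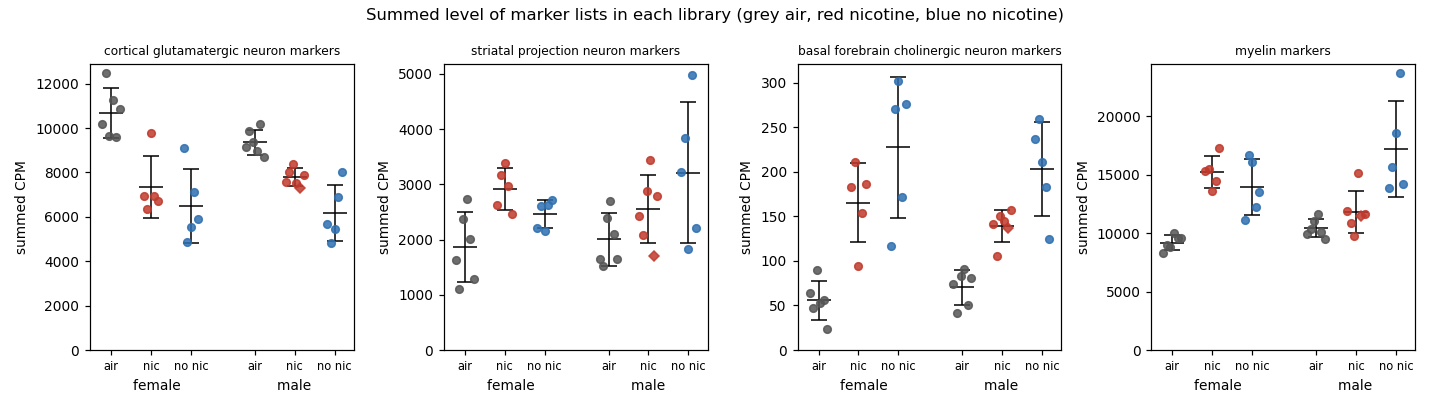
Summed level in CPM of 4 marker lists in each library (y axes from 0, points are libraries, dashes and bars mean ± SD, diamond male nicotine replicate 21). The cortical sums of both no nicotine groups lie below every air library of their sex, and the cholinergic sums of all exposed groups lie above.

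To show which transcripts the receptors varied with, the genes most like each member were found by the correlation of log2 CPM after the group means were taken out, averaged over the 16 female and 17 male libraries, among 13720 genes. These libraries share depth and tissue makeup, so the values are descriptions. Chrm1 was most like Slc8a2, a sodium-calcium exchanger (mean r = 0.917), Chn1 (0.898) and Prrt2 (0.896). Slc8a2 was itself lower in the no nicotine groups, by -0.55 in females (adjusted p = 9.26e-04) and -0.40 in males (adjusted p = 0.00150). Chrm3 was most like Rab6a (0.886), Pi4ka (0.880) and Kcnj3 (0.877), the last being the GIRK subunit named above. Kcnj3 fell by 0.79 in females and 0.81 in males on the log2 scale without nicotine (adjusted p = 9.34e-04 and 6.82e-05), with a change about as large as that of Chrm3.

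Chrm4 was most like Zfp503 (0.807), Agfg2 (0.786) and Tac1 (0.777), the precursor of substance P and a marker of striatal direct-pathway neurons. Tac1 was higher in the female nicotine (log2 fold change 0.84, adjusted p = 0.00517), female no nicotine (0.72, adjusted p = 0.00620) and male no nicotine groups (0.78, adjusted p = 0.00259). Agfg2 was near 0 in both female comparisons (-0.0063 with nicotine and -0.0015 without). Chrm2 was most like Sacm1l (0.821), Lancl3 (0.803) and Slc38a1 (0.790), none of which passed in any comparison.

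Chrm5 was most like Gpr101 (0.918), an orphan G protein-coupled receptor, Usp29 (0.884) and Grb10 (0.877), despite its few reads. Usp29 and Grb10 are imprinted genes. All 3 were higher in the no nicotine groups. Gpr101 rose most (1.81, SE 0.33, adjusted p = 0.00145 in females and 1.30, SE 0.24, adjusted p = 8.11e-04 in males), over a range of 4.98 to 63.1 CPM in female libraries and 7.51 to 46.2 in male ones. Grb10 rose by 0.90 in females (adjusted p = 0.00166) and 0.73 in males (adjusted p = 1.45e-04).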

How the data were processed

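RNA-Seq of mouse frontal cortex was analyzed in 33 libraries, 16 female and 17 male. The authors deposited 1 table of raw read counts per sex: they mapped single reads to mm9 transcripts (Bowtie), removed PCR duplicates (SAMtools) and summed the rest by gene (HTSeq). The strand setting and annotation release are not given in the sources used here. Of 34 count columns, 33 matched a labelled sample and 1 was not used. The deposited normalized tables were not used.

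Genes whose CPM summed to at least 5 over a sex were tested with edgeR 4.0.16 (TMM, quasi-likelihood, 3 groups of a sex in 1 fit, no covariates, Benjamini-Hochberg threshold 0.01) in R 4.3.3. The genes removed held at most 0.0341% of a library. DESeq2 1.42.0 was an alternative, beside other scalings, filters, 2-group fits, left-out libraries and a replicate block. Scripts were tested on simulated data. Of 75 pairs of libraries within a group, none agreed within sampling noise (chi-square per degree of freedom 4.46 to 30.9). Single genes were compared by exact permutation in scipy 1.17.1. Log2 CPM used a prior count of 1. Lengths came from GENCODE on mm9. The members and lists were chosen with earlier results of these data known. The genes named are the 5 receptors and, per list and comparison, those with the smallest p among the called, plus the 3 genes most like each receptor. Slc5a7, Prima1, Bche, Colq, Kcnj3, Kcnj6, Kcnj9, Adcy9, Gng7 and Kcnj5, where not so chosen, were named after their values were seen. A gene that the rule names is not reported here.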

Additional observations from a re-analysis of the deposited data

How the results depend on the processing

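Over 24 alternative fits of each of the 30 receptor fold changes (720 in all), 688 kept their direction and their side of the threshold, 22 lost the call, 9 gained it and 1 changed sign. The calls of Chrm1 and Chrm3 in both no nicotine groups held in all 24. The 40 refits of the differences between the sexes kept direction and side. For Chrm1 in the female nicotine group the call was lost with size factors as DESeq2 computes them (-0.36, adjusted p = 0.0105), upper quartile scaling (-0.34, 0.0148), library totals (-0.31, 0.0121), no filter (-0.35, 0.0110), the stricter filter (-0.35, 0.0110) and the replicate block (-0.34, 0.0444), and it ran from -0.417 to -0.320 when 1 library was left out. DESeq2 gained Chrm3 (-0.53) and Chrm4 (0.29) in the female nicotine group and Chrm3 in males with nicotine against no nicotine (0.37). Leaving out 1 library moved Chrm3 in the female nicotine group between -0.601 and -0.460. The other ranges were 0.327 to 0.422 for Chrm3 in males with nicotine against no nicotine, 0.329 to 0.533 for Chrm4 and 0.780 to 1.33 for Chrm5 in the male no nicotine group, and 1.18 to 1.58 for Chrm5 in the female no nicotine group. Chrm2 in females with nicotine against no nicotine, called in no fit, ran from -0.313 to 0.0655 and changed sign without no nicotine replicate 3 (0.065). Whether the female replicate numbers 1 to 6 pair the libraries could not be decided, since no chance level was computed for the check. Of 14 same-numbered pairs, 4 had a correlation of deviations over 0.1 (range -0.357 to 0.322). Of 16 libraries, 7 correlated best with their own number. With the replicate block Chrm5 in the female no nicotine group lost its call (1.27, adjusted p = 0.0157), and the block called 136 genes for nicotine and 736 for no nicotine, where the fit without it called 651 and 1829 (133 and 717 in both). Male groups share no numbers. DESeq2 called 1319 genes for female nicotine, 159 for male nicotine and 456 for male nicotine against no nicotine, where 2-group fits called 17 for male nicotine and 0 for the last. DESeq2 without male nicotine replicate 21, chosen after seeing the data like the list counts with libraries left out, called 108 and 307 for these male comparisons. With 1 library left out the counts ran from 226 to 930, 823 to 2505, 0 to 2 and 0 to 246 for female nicotine, female no nicotine, male nicotine and male nicotine against no nicotine. Per coding length, Chrm4 ranked 2 and Chrm3 ranked 3 in female air, the reverse of the exon length order. Of the 3 genes most like a receptor, Spearman correlation kept 0 to 2 and correlation with group means left in kept 1 or 2. The causes were not tested. Depth limits Chrm5, with 8 to 75 reads a library.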
